A study of Rattus norvegicus with 9 samples.

Results

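The miR-125 and miR-99/100 families were examined in exosomal small RNA of rat peritoneal macrophages. The members were the 5 rows of the deposited miRNA table, of 201 in all, that carry the names miR-125a-5p, miR-125b-5p, miR-99a-5p, miR-99b-5p and miR-100-5p, together with every sequenced tag of these miRNAs in the single-library files. Exosomes, small vesicles that cells release, were collected from primary macrophages obtained by lavage of untreated rats and grown in medium with fetal bovine serum. Their RNA was sequenced on the BGISEQ-500. Whether the serum was freed of its own vesicles was not stated in the sources used here.

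There were 3 groups of 3 libraries. Control cultures received DMSO at 0.1% for 24 h. LPS cultures received bacterial lipopolysaccharide, dissolved in DMSO, at 100 ng/ml for 6 h. LPS+AS-IV cultures received astragaloside IV (AS-IV, a saponin of Astragalus root), also dissolved in DMSO, at 150 µM for 24 h and then LPS. The final DMSO of the LPS and LPS+AS-IV cultures is not given, so vehicle and time in culture cannot be told apart from treatment in some comparisons. The comparisons ask what LPS changed in the exosomes and whether AS-IV given beforehand altered this.

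A miRNA guides an Argonaute protein to messenger RNAs through its seed, the bases near its 5′ end, and miRNAs with the same seed can share targets. miR-125a and miR-125b have 1 seed, and miR-99a, miR-99b and miR-100 have another. In mammals the families sit side by side in clusters that each hold a miR-99/100 gene, a let-7 gene and a miR-125 gene. In macrophages and blood cells miR-125 is known for acting on inflammatory signalling and differentiation, with targets such as Tnf, Irf4 and Tnfaip3, and the miR-99/100 family is known for restraining Mtor and Igf1r.

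The mature sequences are shown because the results below turn on which tag was given which name. Capitals mark the seed, bases 2 to 8. They are RefSeq sequences written with U, except miR-99a-5p, which is the most abundant tag of that name in the deposited files, written with T.
miR-125a-5p: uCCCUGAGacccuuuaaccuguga
miR-125b-5p: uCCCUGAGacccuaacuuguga
miR-99a-5p: aACCCGTAgatccgatcttgt
miR-99b-5p: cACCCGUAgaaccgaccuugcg
miR-100-5p: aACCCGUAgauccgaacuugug
miR-3588: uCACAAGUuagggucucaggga
Counted from the 5′ end, miR-99a-5p and miR-100-5p differed by 1 substitution in the 21 bases compared, T16A. miR-99a-5p and miR-99b-5p differed by A1C, T11A, T16C and T21C. miR-125a-5p and miR-125b-5p shared their first 13 bases and differed at 7 of the 22 compared. miR-3588 is no member, but RefSeq gives it as the exact reverse complement of miR-125b-5p, and its gene Mir3588 lies on the opposite strand to Mir125b2.

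In RefSeq's GRCr8 gene table Mir99b, Mirlet7e and Mir125a lie together on chromosome 1, within Spaca6, with Mir3596c beside Mirlet7e. Mir99a, Mirlet7c1 and Mir125b2 lie together on chromosome 11, with Mir3588 beside Mir125b2. Mir100, Mirlet7a-2 and Mir125b1 lie together on chromosome 8, with Mir3596a beside Mirlet7a-2, within Mir100hgl, a long non-coding host gene. The Mir125b1 hairpin also holds mature miR-125b-5p, so its reads cannot be assigned to 1 of the 2 loci.

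Assigned reads ran from 3484099 to 9527483 per library, but the miRNA table held only 15426 (LPS+AS-IV 1, the fewest) to 546599 of them (LPS+AS-IV 3, the most). The members held 0.679% to 2.97% of the table's reads. LPS+AS-IV 3 stood apart in depth, and its member tags had either at most 8 reads or at least 94. Such gaps were not particular to it: Control 3 had at most 1 or at least 33, LPS 2 at most 6 or at least 41. LPS 3 had at most 1 or at least 37. Of the labelled cell type's 4 markers, miR-142-3p had 0 reads in every library, and miR-223-3p was found in 6 libraries of 9. miR-142-5p had 54 reads in Control 1, 47 in LPS 3 and at most 1 elsewhere. miR-155-5p had 0, 26 and 0 reads in the Control libraries, 227, 2 and 234 in the LPS libraries and 74, 225 and 0 in the LPS+AS-IV libraries. The lymphocyte miR-150-5p and the erythroid miR-451-5p were found in all 9, but the other markers of these lists were not. The lymphocyte miR-342-3p passed 1 read only in Control 1, LPS 3 and replicates 2 and 3 of LPS+AS-IV. The erythroid miR-144-3p never passed 1 read. Replicate 3 of both treated groups held no miR-486, the remaining erythroid marker. The stromal list had 7 miRNAs, of which miR-127-3p was found in all 9 libraries, miR-199a-3p had 1766 reads in LPS+AS-IV 3, miR-214-3p was at 0 throughout and miR-143-3p and miR-145-5p never passed 1 read.

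Counted as deposited, miR-125a-5p was present in every Control library and had no reads in LPS. Its row held 1, 82 and 94 reads in the Control libraries, 0, 0 and 0 in the LPS libraries and 0, 64 and 0 in the LPS+AS-IV libraries. Control and LPS did not overlap in this row, as was so for 19.1% of all miRNAs tested, and Control 1 held a single read. Against a floor of 3 reads per LPS library the mean of this row was at least 18-fold lower in LPS than in Control. Without Control 2 it was at least 9.29-fold lower. That floor takes reads as independent, and the fold describes this row, which held 5.83% of the miRNA's reads by sequence, and not the miRNA. The mean in LPS+AS-IV was at least 4.70-fold above that floor, but without LPS+AS-IV 2 both groups had 0 reads and no fold exists.

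The single-library files held many more reads of miR-125a-5p, filed elsewhere. Its main tags are given because only 1 of them entered the table.
24 nt reference form: tCCCTGAGaccctttaacctgtga
22 nt form: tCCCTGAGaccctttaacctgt
25 nt form: tCCCTGAGaccctttaacctgtgaa
24 nt form with another end: tCCCTGAGaccctttaacctgtgt
Only the reference form made up the table row. The 22 nt form equals the first 22 bases of the reference, yet it was filed under the hairpin name with a deposited mismatch number of 1, and hairpin tags were left out of the table. It had 2, 52 and 34 reads in the Control libraries, 127, 104 and 130 in the LPS libraries and 50, 247 and 2833 in the LPS+AS-IV libraries. It was thus the form present in all 9 libraries, while the reference form was present in 4. The 25 nt form had 150 reads, all in LPS 3.

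Counted by sequence, whatever the name, miR-125a-5p had 5, 200 and 198 reads in the Control libraries, 152, 104 and 280 in the LPS libraries and 50, 312 and 2836 in the LPS+AS-IV libraries. In CPM, counts set per megaread of the library's miRNA reads and scaled between libraries with edgeR's TMM factors, this was 54.3, 3128 and 1412 in the Control libraries, 2951, 889 and 2092 in the LPS libraries and 1623, 2565 and 2697 in the LPS+AS-IV libraries. The Control libraries spanned the widest range and the groups overlapped. In edgeR's quasi-likelihood test with Benjamini-Hochberg adjustment the log2 fold change of LPS against Control was 0.37 by sequence (SE 1.09, adjusted p = 0.982), where the table gave -9.93 (SE 4.43, unadjusted p = 0.0452, adjusted p = 0.662). With 0 reads in LPS, the table's fitted value and its SE measure no precise size.

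The shares of the reference form and the 22 nt form of miR-125a-5p did not overlap between Control and LPS, whereas its total by sequence did. Among the other members' forms compared, the 21 nt form of miR-99a-5p was also apart. Those of miR-99b-5p, miR-100-5p and miR-125b-5p overlapped. The reference form made up 20%, 41.0% and 47.5% of its reads in the Control libraries and 0% in each LPS library. The 0 reads in LPS were out of 152, 104 and 280, with upper 95% Wilson bounds of 2.46%, 3.56% and 1.35%. These bounds take each read as independent. The reads lay in only 2, 1 and 2 distinct tags, so the bounds may be too low. The 22 nt form made up 40%, 26.0% and 17.2% in the Control libraries, 83.6%, 100% and 46.4% in the LPS libraries and 100%, 79.2% and 99.9% in the LPS+AS-IV libraries. Every LPS and LPS+AS-IV library was above every Control library in this share. An exact permutation test, two-sided, gave p = 0.1 for LPS against Control, the smallest that 3 against 3 allows, and 0.6 adjusted over 30 such comparisons. Control 1 had only 5 reads of the miRNA, so its shares are poorly determined.

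**Figure D1:**
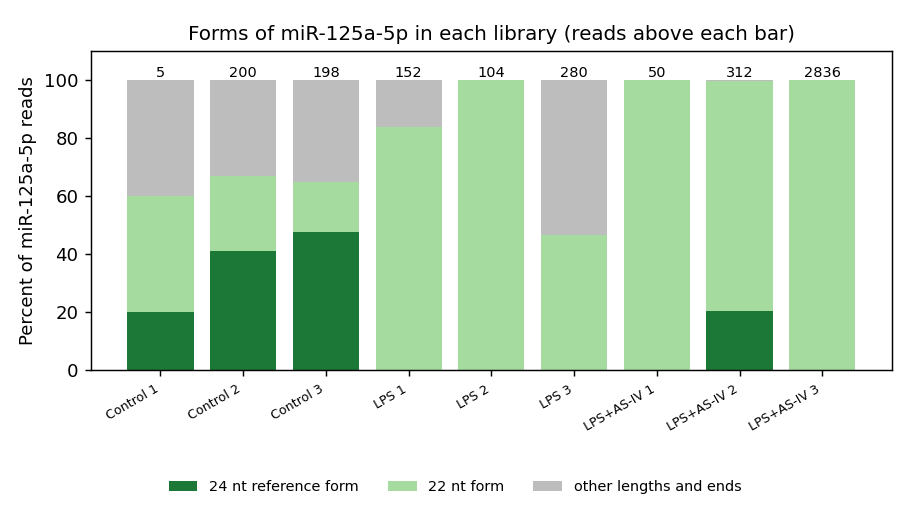
Forms of miR-125a-5p as percent of its reads (vertical axis) in each of the 9 libraries, with the reads behind each bar above it. The 24 nt reference form, which alone entered the deposited table, is seen in the Control libraries and LPS+AS-IV 2, and the 22 nt form fills 46.4% to 100% of the reads in the LPS and LPS+AS-IV libraries.

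miR-125b-5p was nearly empty in the table, with 3, 0 and 0 reads in the Control libraries, 0, 0 and 0 in the LPS libraries and 2, 0 and 0 in the LPS+AS-IV libraries. It fell under the filter on low counts and was not tested there. By sequence it had 73, 86 and 48 reads in the Control libraries, 36, 50 and 137 in the LPS libraries and 10, 196 and 1264 in the LPS+AS-IV libraries. Every library thus held miR-125b-5p, and the table held 5 of its 1900 reads, or 0.263%.

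Most reads of miR-125b-5p in 6 of the 9 libraries carried the name of miR-3588, the miRNA of the opposite strand. Under that name stood 86.2% of its reads over all libraries, a share weighted to the 1264 reads of LPS+AS-IV 3. By library it was 39.7%, 98.8% and 2.08% in the Control libraries, 55.6%, 98% and 99.3% in the LPS libraries and 0%, 75.5% and 92.6% in the LPS+AS-IV libraries, so it was low or absent in Control 3 and LPS+AS-IV 1. The reads had the base order of miR-125b-5p and not of its complement. The tags that held the most reads are shown to make this visible.
22 nt reference form: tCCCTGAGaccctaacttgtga
22 nt form with another end: tCCCTGAGaccctaacttgtaa
20 nt form: tCCCTGAGaccctaacttgt
The reference form had 3, 27 and 0 reads in the Control libraries, 2, 48 and 40 in the LPS libraries and 2, 117 and 0 in the LPS+AS-IV libraries. It was named miR-125b-5p in Control 1 and LPS+AS-IV 1 and miR-3588 in the other 5 libraries that held it. The table's row for miR-3588 read 0, 27, 0, then 2, 48, 40, then 0, 117 and 0 across the same groups, so it repeated the reference form of miR-125b-5p in those 5. The form with the other end had 823 reads, all in LPS+AS-IV 3, where it was 65.1% of the reads of miR-125b-5p.

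In CPM miR-125b-5p stood at 793, 1345 and 342 in the Control libraries, 699, 427 and 1024 in the LPS libraries and 325, 1611 and 1202 in the LPS+AS-IV libraries. The 3 groups overlapped. The log2 fold change by edgeR's quasi-likelihood test was -0.20 in LPS against Control (SE 1.23, Benjamini-Hochberg adjusted p = 0.982) and 0.55 in LPS+AS-IV against LPS (SE 1.23, adjusted p = 0.964). A few tags did come from the other strand, and of the 5 members only miR-125b-5p had any. The longest frequent one, cacaagttagggtctcaggga, had 66 reads in Control 3 and 0 elsewhere, against 48 reads of miR-125b-5p in that library. It equals miR-3588 without its first base, yet it was filed under the hairpin name of miR-125b-5p. Counted by sequence, miR-3588 had 67 reads in Control 3 and 0 elsewhere.

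**Figure D2:**
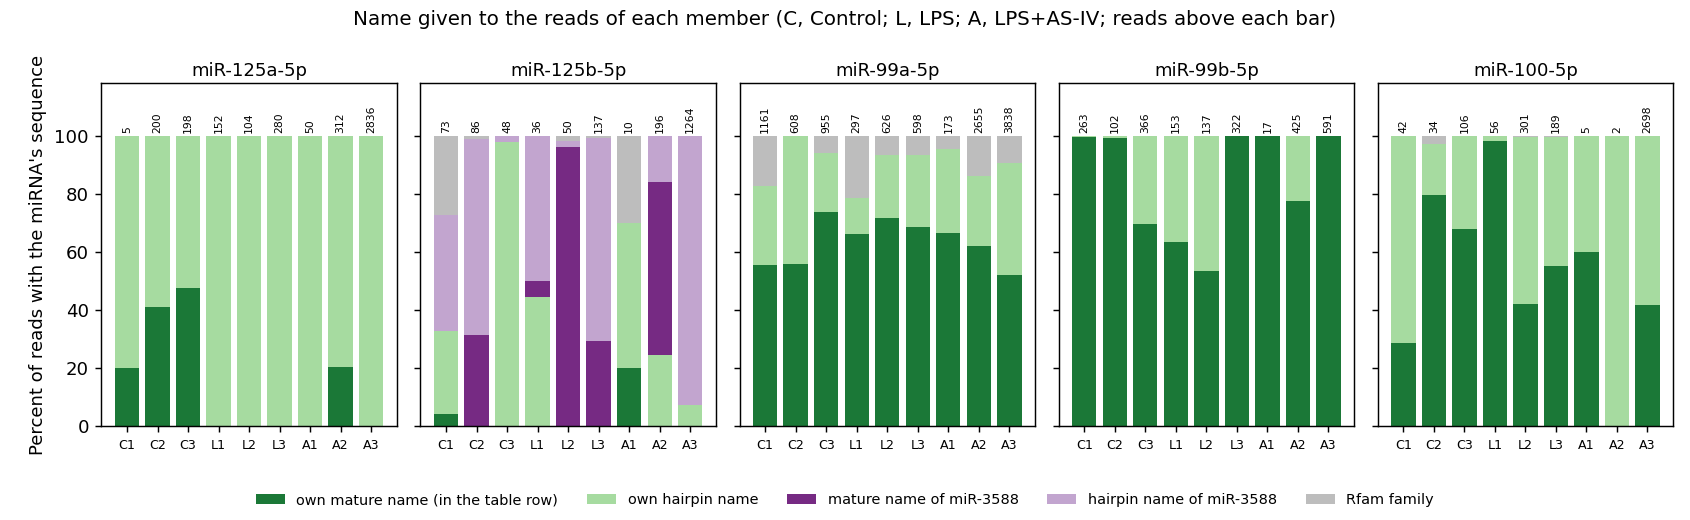
Percent of each member's reads, counted by sequence (vertical axis), that the deposited files filed under its own mature name, its own hairpin name, the names of miR-3588 or an Rfam family, in each of 9 libraries with the reads above each bar. Dark green is the part that entered the member's table row: it is at most 47.5% for miR-125a-5p and at most 20% for miR-125b-5p.

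miR-99a-5p was the most abundant member in each of the 9 libraries, by sequence and in the table. By sequence it had 1161, 608 and 955 reads in the Control libraries, 297, 626 and 598 in the LPS libraries and 173, 2655 and 3838 in the LPS+AS-IV libraries. In CPM this was 12618, 9509 and 6811 in the Control libraries, 5766, 5348 and 4469 in the LPS libraries and 5614, 21824 and 3650 in the LPS+AS-IV libraries. Each LPS library was below each Control library, and the LPS+AS-IV libraries spanned both, with LPS+AS-IV 2 highest of all. The table gave 11161 ± 2379 CPM in the Control libraries, 7104 ± 542 in the LPS libraries and 12479 ± 11185 in the LPS+AS-IV libraries (SD, n = 3 each), with Control and LPS again apart.

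The lower miR-99a-5p in LPS did not pass the test. Its log2 fold change against Control was -0.65 in the table (SE 0.63, adjusted p = 0.964) and -0.89 by sequence (SE 0.59, adjusted p = 0.933), both by edgeR's quasi-likelihood test with Benjamini-Hochberg adjustment. The summed level of the stromal marker list was also lower in LPS, at 1151 to 2602 CPM against 8931 to 11939 CPM in Control. Most of its reads in each of these 6 libraries were miR-127-3p, with 552, 247 and 630 reads in the Control libraries and 31, 95 and 93 in the LPS libraries. The endothelial list, mostly miR-126a-3p, stood at 1924 to 5307 CPM in LPS against 6870 to 12608 CPM in Control. The erythroid list, mostly miR-451-5p, stood at 28283 to 36378 CPM in LPS against 37514 to 48569 CPM in Control. In it miR-486 had 287, 336 and 610 reads in the Control libraries and 83, 8 and 0 in the LPS libraries. miR-451-5p had 1707, 919 and 3004 reads in the Control libraries and 928, 1782 and 1764 in the LPS libraries. Scaled to CPM, Control and LPS overlapped for miR-451-5p, unlike for the summed erythroid list. The lymphocyte list overlapped, at 23388 to 32548 CPM in LPS and 26685 to 37066 CPM in Control. The myeloid list stood at 8168, 34.2 and 8017 CPM in the LPS libraries and 1943, 1105 and 1532 CPM in the Control libraries. Of the 3 stromal, 1 endothelial, 2 erythroid, 2 lymphocyte and 2 myeloid markers tested, 0 passed in this comparison. The part of these lists in the level of miR-99a-5p was not tested. In bulk exosomal RNA, fewer vesicles that carry a miRNA and fewer copies per vesicle cannot be told apart.

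miR-99b-5p was the member whose table row was most nearly complete, holding 86.1% of its reads. By sequence it had 263, 102 and 366 reads in the Control libraries, 153, 137 and 322 in the LPS libraries and 17, 425 and 591 in the LPS+AS-IV libraries. In CPM the values were 2858, 1595 and 2610, then 2970, 1170 and 2406, then 552, 3494 and 562. Control and LPS covered nearly the same range, and 2 of the 3 LPS+AS-IV libraries were lower than any other library. LPS+AS-IV 2 was the highest of all 9. The log2 fold change of LPS+AS-IV against LPS was -0.50 by sequence (SE 0.90, edgeR quasi-likelihood, Benjamini-Hochberg adjusted p = 0.964) and -2.04 without LPS+AS-IV 2. In the table it was -0.41, and -1.46 without that library.

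miR-100-5p, which differs from miR-99a-5p only by T16A over the bases compared, had its LPS and Control libraries in the opposite order. By sequence it had 42, 34 and 106 reads in the Control libraries, 56, 301 and 189 in the LPS libraries and 5, 2 and 2698 in the LPS+AS-IV libraries. In CPM this was 456, 532 and 756 in the Control libraries, 1087, 2572 and 1412 in the LPS libraries and 162, 16.4 and 2566 in the LPS+AS-IV libraries. Each LPS library was above each Control library. The LPS+AS-IV libraries lay at both ends: replicates 1 and 2 were the lowest of the 9, and replicate 3 was next to the highest, LPS 2.

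The table showed the same separation for miR-100-5p, with 678 ± 371 CPM in Control and 1940 ± 256 in LPS (SD, n = 3 each). The difference still did not pass edgeR's quasi-likelihood test. Its log2 fold change was 1.52 in the table (SE 2.09, Benjamini-Hochberg adjusted p = 0.964) and 1.54 by sequence (SE 1.49, adjusted p = 0.982). The liver and serum marker list was also higher in each LPS library, at 3595 to 9355 CPM against 1451 to 3238 CPM in Control, with 0 of its 2 tested markers called, and its part in the level of miR-100-5p was not tested. Between LPS+AS-IV and LPS the log2 fold change of miR-100-5p was -0.88 by sequence (SE 1.46, adjusted p = 0.964), and -4.36 without LPS+AS-IV 3.

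**Figure D3:**
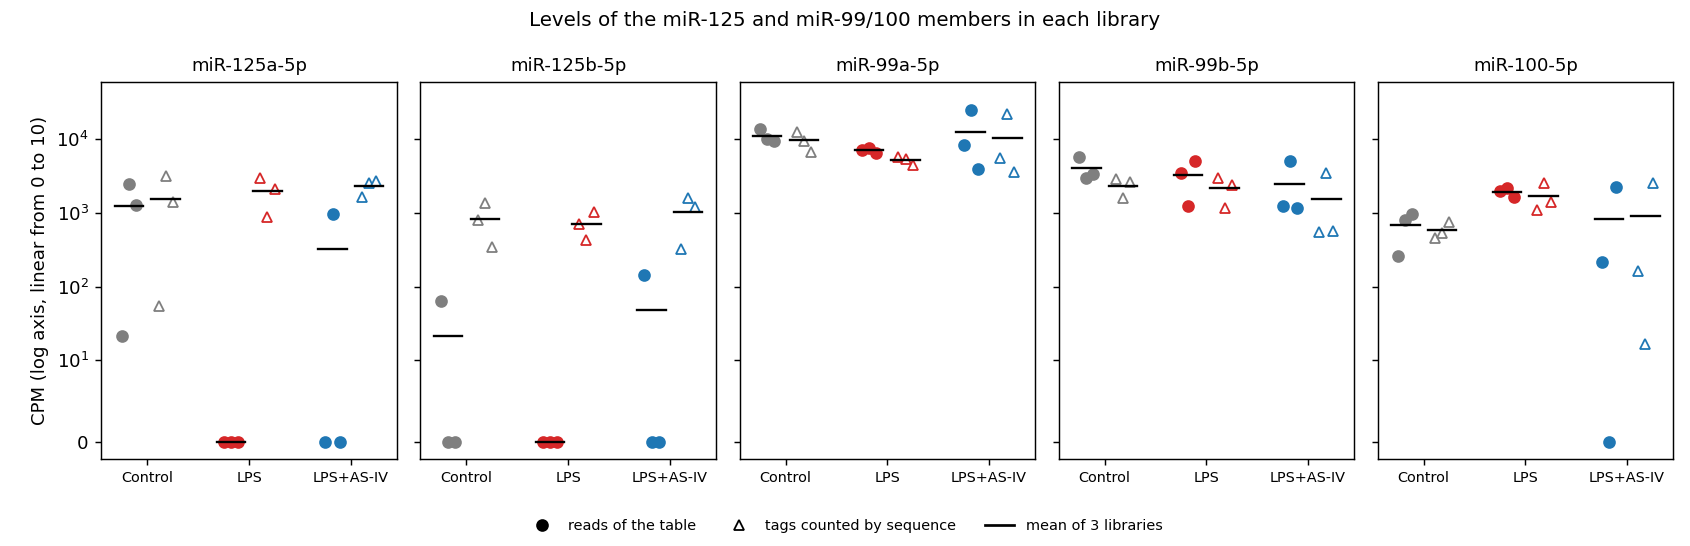
CPM of each member (vertical axis, log scale above 10) in the 3 groups, from the reads of the table (filled circles) and from tags counted by sequence (open triangles), with the mean of 3 libraries as a line. miR-125a-5p and miR-125b-5p sit at 0 in the table's LPS libraries and between 427 and 2951 CPM by sequence, miR-99a-5p is lower and miR-100-5p higher in each LPS library than in each Control library.

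The balance within the miR-99/100 family needs no scaling between libraries, since it sets members of 1 library against each other. miR-100-5p made up 2.86%, 4.57% and 7.43% of the family's reads in Control by sequence. In LPS it made up 11.1%, 28.3% and 17.04%. Every LPS library was above every Control library, and the 95% Wilson intervals of Control 3 (6.18% to 8.91%) and LPS 1 (8.62% to 14.1%), the closest pair, overlapped only slightly. In the table the shares were 1.31%, 5.78% and 6.98% in Control and 15.8%, 19.6% and 12.4% in LPS, again without overlap.

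In LPS+AS-IV the same share was 2.56% in replicate 1, 0.0649% in replicate 2 and 37.9% in replicate 3. Replicates 1 and 2 were thus below every Control library and replicate 3 above every LPS library. The intervals, which take each read as independent, were 1.10% to 5.86%, 0.0178% to 0.236% and 36.7% to 39.0%. That of replicate 3 was apart from the others, while that of replicate 1 overlapped the Control values. Tags of 1121, 896 and 678 reads made up nearly all miR-100-5p reads of replicate 3, so its interval may be too narrow. Replicate 1 rests on 5 reads of miR-100-5p and replicate 2 on 2.

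Shares within the family add up to a fixed total, so that of miR-99a-5p is not independent of that of miR-100-5p. By sequence miR-99a-5p held 66.9% to 81.7% of the family's reads in Control and 53.9% to 58.8% in LPS. In the table its share overlapped between these groups, at 68.3% to 72.6% and 49.2% to 69.1%. The whole family stood at 12582 ± 2992 CPM in the Control libraries, 9067 ± 769 in the LPS libraries and 12814 ± 10846 in the LPS+AS-IV libraries by sequence (SD, n = 3 each). Within the miR-125 family, miR-125b-5p held 93.6% of the reads in Control 1 and 16.7% to 38.6% in the other 8 libraries. The high share in Control 1 went with its 5 reads of miR-125a-5p.

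**Figure D4:**
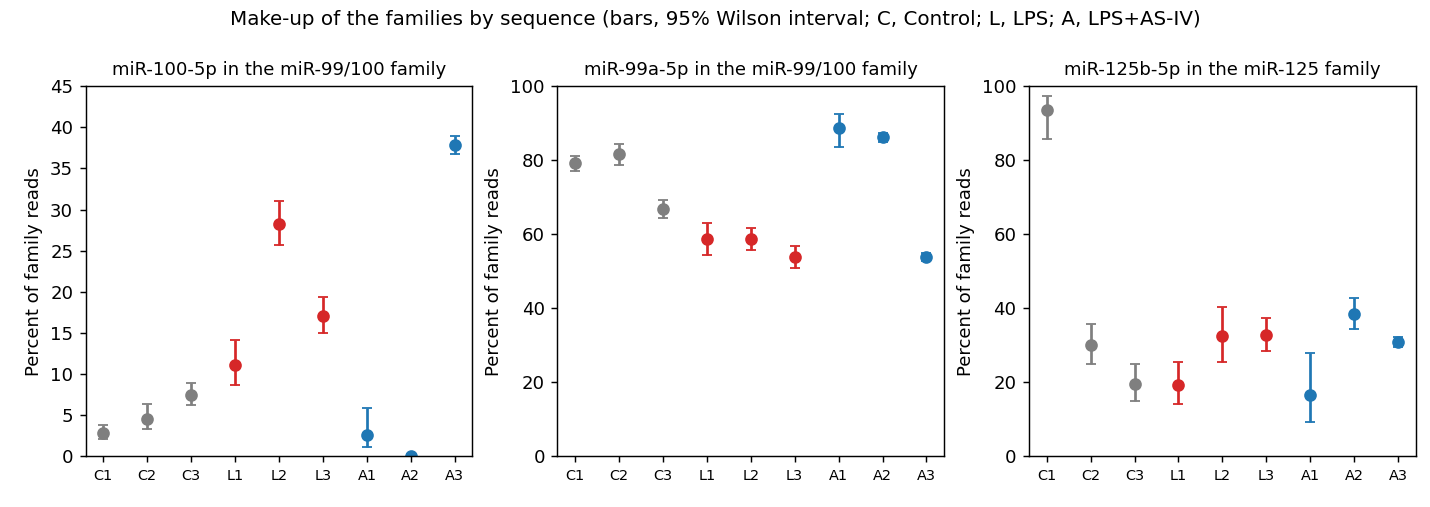
Share of the family's reads by sequence (vertical axes, percent, with 95% Wilson intervals) held by miR-100-5p and miR-99a-5p in the miR-99/100 family and by miR-125b-5p in the miR-125 family, in each library. The 3 LPS libraries lie above the 3 Control libraries for miR-100-5p (11.1% to 28.3% against 2.86% to 7.43%) and below them for miR-99a-5p.

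In LPS against Control, edgeR's quasi-likelihood test called 0 of the 4 members tested in the table, where 1.06% of all 94 miRNAs were called, and 0 of 5 by sequence, where 0% of 117 were. At an unadjusted p under 0.05 there was 1 member in the table, miR-125a-5p, beside 6.38% of all miRNAs, and 0 by sequence, beside 8.55% of all. DESeq2 called 0 members in both, beside 3.45% of all in the table and 3.54% by sequence, and gave no p for miR-100-5p in the table in any comparison. Groups did not overlap for 3 of 4 members in the table, beside 19.1% of all miRNAs tested. Among these was miR-125a-5p, at 21.6 CPM in Control 1, which is below the 108 CPM that a count of 0 allowed in LPS 1. By sequence the groups did not overlap for 2 of 5, miR-99a-5p and miR-100-5p, beside 18.8% of all. The median log2 fold change of the members was -0.47 in the table and -0.11 by sequence, beside -0.04 and -0.08 over all miRNAs tested.

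In LPS+AS-IV against LPS, 0 of 4 members were called in the table (0% of all miRNAs) and 0 of 5 by sequence (0% of all), and 0 were at an unadjusted p under 0.05 in either, beside 3.19% and 5.98% of all miRNAs. DESeq2 called 0 members, beside 1.15% and 3.54% of all. Groups overlapped for every member, where 7.45% of all miRNAs in the table and 8.55% by sequence did not overlap. By sequence miR-99a-5p had the smallest unadjusted p of the members, 0.121, with a log2 fold change of 1.00 (SE 0.60, edgeR adjusted p = 0.964). Without LPS+AS-IV 2 this value turned to -0.22. The table gave 0.81 (SE 0.63) for miR-99a-5p, -0.41 (SE 1.01) for miR-99b-5p and -1.23 (SE 2.07) for miR-100-5p, with an edgeR adjusted p of 0.963 each.

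In LPS+AS-IV against Control, which shares its libraries with the other comparisons, 0 of 4 members were called in the table (2.13% of all miRNAs) and 0 of 5 by sequence (0% of all), and 0 were at an unadjusted p under 0.05 in either, beside 3.19% and 1.71% of all miRNAs. DESeq2 called 0 members, beside 2.3% and 0% of all. No member's groups were apart, beside 10.6% and 11.1% of all miRNAs. By sequence the log2 fold changes were 0.59 for miR-125a-5p (SE 1.10), 0.34 for miR-125b-5p (SE 1.23), 0.10 for miR-99a-5p (SE 0.59), -0.61 for miR-99b-5p (SE 0.90) and 0.66 for miR-100-5p (SE 1.46). The edgeR adjusted p was 0.969 for each. Without LPS+AS-IV 2 the values were -1.03 for miR-99a-5p and -2.05 for miR-99b-5p, and without LPS+AS-IV 3 the value was -2.79 for miR-100-5p. The fits' common dispersion had a square root of 1.42 in the table and 1.28 by sequence, a spread at which a large change can miss the threshold.

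**Figure D5:**
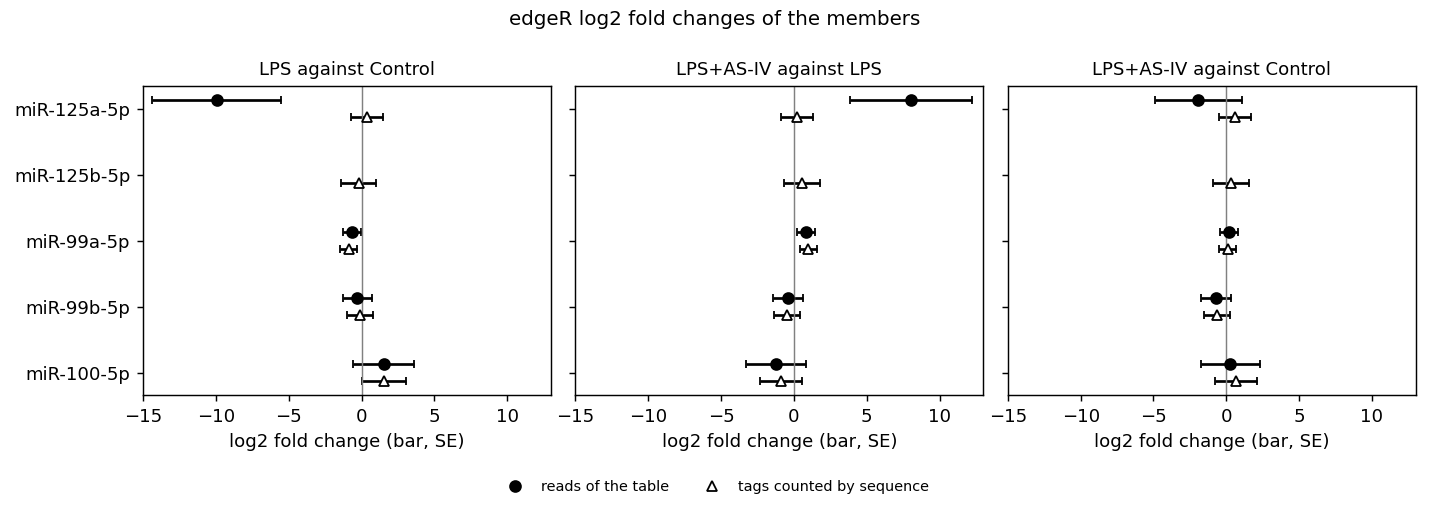
edgeR log2 fold changes (horizontal axes, bars for the SE) of the members in the 3 comparisons, from the table (filled circles) and from tags counted by sequence (open triangles). The table's values for miR-125a-5p, -9.93 and 8.02 in the first 2 panels, come from 0 reads in LPS, and the values by sequence are 0.37 and 0.22.

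Beyond their levels, the members differed in how their tags ended. Most tags began at the reference base, as did every read counted for miR-125a-5p and miR-125b-5p. In miR-99b-5p the share was 94.8% in LPS+AS-IV 2 and 100% in the other 8 libraries, and 1 of 56 reads of miR-100-5p had another start in LPS 1. The main exception was miR-99a-5p, where tags with another start made up 12.2% of reads in LPS+AS-IV 3, 9.20% in LPS 3 and 4.63% in LPS+AS-IV 2. The main such tag, shown because an added base moves the seed, was aaACCCGTAgatccgatcttgt, with 17 reads in Control 1 and 467 in LPS+AS-IV 3. The capitals are the reference seed, which there begins at base 3 of the tag.

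At the 3′ end, miR-99a-5p kept 1 form on top everywhere. Its 21 nt form made up 46.3%, 50.5% and 47.0% of reads in the Control libraries, 65.3%, 64.1% and 55.0% in the LPS libraries and 66.5%, 60.3% and 52.0% in the LPS+AS-IV libraries. Each Control library was below each other library (exact permutation test, two-sided, p = 0.1, the smallest possible, and 0.6 adjusted over 30 comparisons). A tag with 1 further base, aACCCGTAgatccgatcttgta, had 1005 reads in LPS+AS-IV 3 and 1 read elsewhere. The 18 nt tag aACCCGTAgatccgatct, with 918 reads in all, was filed under an Rfam family and so was missing from the table.

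The most frequent form of miR-100-5p was not the same in every library. Its 22 nt reference form was the top form in Control 3, LPS 1 and LPS+AS-IV 1, with 72, 53 and 3 reads. In LPS+AS-IV 3 that form had 0 reads of 2698, while the 21 nt form had 1121 and forms 1 base longer had 896 and 678.
21 nt form: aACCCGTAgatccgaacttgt
longer form with a: aACCCGTAgatccgaacttgtga
longer form with t: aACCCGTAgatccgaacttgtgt
Forms longer by 1 base made up 30.2% ± 35.1 of the reads in the Control libraries, 34.0% ± 30.1 in the LPS libraries and 66.1% ± 30.7 in the LPS+AS-IV libraries (SD, n = 3 each), a spread between replicates as wide as the differences between groups. For miR-99b-5p the reference form made up 63.2% ± 16.5 in the Control libraries, 40.1% ± 7.84 in the LPS libraries and 55.7% ± 38.3 in the LPS+AS-IV libraries, with overlap between all groups.

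The let-7 partners of the clusters were read in the table. let-7c-5p, the neighbour of miR-99a and miR-125b, had 1136, 899 and 1392 reads in the Control libraries, 473, 473 and 1301 in the LPS libraries and 406, 2951 and 3097 in the LPS+AS-IV libraries. Its log2 fold change in LPS against Control was -0.61 (SE 0.57, edgeR adjusted p = 0.964), beside -0.65 for miR-99a-5p. RefSeq gives let-7c-5p the genes Mirlet7c1 and Mirlet7c2, on chromosomes 11 and 7, so its reads cannot be assigned to 1 locus. The same holds for let-7a-5p, with the genes Mirlet7a-2 and Mirlet7a1. let-7e-5p, the neighbour of miR-99b and miR-125a, had 101, 0 and 156 reads in the Control libraries, 43, 56 and 2 in the LPS libraries and 8, 226 and 3 in the LPS+AS-IV libraries. By sequence let-7e-5p had 257, 25 and 156 reads in the Control libraries, 58, 61 and 144 in the LPS libraries and 45, 283 and 4 in the LPS+AS-IV libraries, so every library held it. let-7a-5p was the 1 miRNA called in LPS against Control, but its tag was named miR-3596a in the 3 Control libraries and let-7a-5p in the other 6.

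Of the other arms of the members' hairpins, only miR-99b-3p was listed in the table, with 1 read in Control 3 and 72 in LPS 2. By sequence it had 91 reads in Control 3 and 73 in LPS 2, and miR-99a-3p had 34 in LPS 1. miR-351-5p, the further miRNA with the miR-125 seed, had no tag by sequence. miR-10a-5p, a relative whose sequence resembles that of the miR-99/100 family, had 149, 79 and 316 reads by sequence in the Control libraries, 4, 233 and 135 in the LPS libraries and 9, 95 and 2419 in the LPS+AS-IV libraries, with overlapping levels. miR-10b-5p, not listed in the table, had 38, 38 and 102 reads in the Control libraries, 3, 1 and 1 in the LPS libraries and 5, 46 and 0 in the LPS+AS-IV libraries. Its log2 fold change in LPS against Control was -4.59 (SE 2.61, edgeR adjusted p = 0.761).

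Likeness of pattern was measured in the table as the root mean square difference of log2 CPM over the 9 libraries, each miRNA centred on its own mean, so a smaller value is a closer pattern. A miRNA's own spread is its distance from a flat pattern. Among miRNAs other than the members, miR-99a-5p was nearest to miR-23a-3p, at 0.31, and let-7f-5p, at 0.46. Its own spread was 0.70, and the median over the tested miRNAs other than the members was 2.13. miR-99b-5p, with an own spread of 0.88, was nearest to let-7f-5p, at 0.56, and let-7c-5p, at 0.75. The member miR-99a-5p lay between these at 0.73, which is above the own spread of miR-99a-5p. miR-100-5p was nearest to miR-15b-5p, at 1.20, and miR-378a-3p, at 1.53. It stood at 2.74 from miR-99a-5p, above its own spread of 2.11. miR-125a-5p was nearest to miR-140-5p, at 2.29, and miR-411-5p, at 2.34, little below its own spread of 2.86 over the libraries. The points share their libraries and depth.

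In the order of levels by sequence, miR-99a-5p was first in 9 of 9 libraries. The 4 others changed places from library to library and their ranges overlapped. miR-99b-5p was second in 5 libraries, and last in LPS+AS-IV 3. miR-100-5p was second in LPS 2 and last in Control 2, LPS+AS-IV 1 and LPS+AS-IV 2. All members are 21 to 24 nt long, so these levels are reads per miRNA without a correction for length.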

How the data were processed

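Small RNA of exosomes was sequenced in 9 libraries, 3 per group. Per the file headers, the deposited table gave a read count, a whole number, for each of 201 mature miRNAs, and a column headed exp whose making was not stated. The deposited single-library files held the count of each tag, its assigned name and a mismatch number or Rfam score, per the file headers. The submitters' processing notes name Bowtie2 and Rnor_6.0, with no role. Not given in the sources used here are the miRBase release and the trimming of adapters.

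Reads in the table ran from 15426 to 546599 per library. Counts were fitted with edgeR 4.0.16 in R 4.3.3 (quasi-likelihood, glmQLFTest) with TMM factors, filterByExpr defaults, 1 fit over 9 libraries and Benjamini-Hochberg adjustment with a threshold of 0.05, on 94 miRNAs, 4 of them members. CPM values are TMM-scaled. Each SE was obtained by dividing the size of the log2 fold change by the root of its F statistic. After the data were seen, tags were also counted by sequence. Every tag of up to 28 nt that held bases 2 to 18 of a mature miRNA on its own strand was counted, whatever its name, and the same fit covered 117 miRNAs. A count of 0 allows up to 3 reads. Intervals are 95% Wilson intervals, and they and the floors cover counting error only, since PCR reads without molecular identifiers are not independent molecules. Alternatives were DESeq2 (1.42.0) and its size factors, library totals, no filter, 2 groups only, the replicate block, the exp column, mature and hairpin tags, each tag given to 1 miRNA, and leaving out each library. Fits were tested on simulated data: changes were recovered at a low dispersion and not at one as wide as in the table, so a miRNA that did not pass is not shown to be unchanged.

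The members, the lists and the rule for named miRNAs were chosen with earlier results of these data known. The rule took the 5 members, their let-7 cluster partners, the other hairpin arms, seed relatives and the 2 miRNAs nearest in pattern to each member tested. Replicates were compared, and no pair of libraries held the same counts (lowest chi-square per degree of freedom 24.3). The labels do not say that replicates were separate animals or cultures, so a p-value here measures the spread of these libraries alone, and that may be technical. Mature sequences are RefSeq's, with its GRCr8 gene table used for names, chromosomes and neighbours. No coordinates are given.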

Additional observations from a re-analysis of the deposited data

Results flagged for a closer look

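Tags antisense to miR-125b-5p lay outside the comparisons, and 4 of them had 0 reads in every Control library and reads elsewhere. The 3 with more than 3 reads are given here, and the fourth had 2 reads in LPS+AS-IV 3. The 16 nt tag gttagggtctcaggga had 758 reads in LPS+AS-IV 3. A tag of 17 nt with the same bases and 1 more at its 5′ end, agttagggtctcaggga, had 25 reads in LPS+AS-IV 2. A further 16 nt tag, gttagggtctcagggg, had 5 reads in LPS+AS-IV 3. Each was filed under an Rfam family and found in 1 library. The longer antisense tag of Control 3, with 66 reads, shows that the strand was also read in a Control library. No antisense tag was found for the other 4 members.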

How the results depend on the processing

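Members passed the threshold in 0 of 222 alternatives with a test for the table and 0 of 195 by sequence. A further 4 for the table had no usable test: DESeq2 gave miR-100-5p no p in any of 3 comparisons, and miR-125a-5p had 0 reads in both groups of LPS+AS-IV against LPS without LPS+AS-IV 2. The smallest adjusted p were 0.301 and 0.204; the direction of the members reversed in 16 and 23. Of the levels and hairpin shares, 199 moved by less than 1 SD and 50 by more. Counting by sequence was chosen after seeing the data, as was each alternative to it.

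For miR-125a-5p, summing mature and hairpin tags turned LPS against Control from -9.93 to 0.42 and LPS+AS-IV against Control from -1.91 to 0.54; counting by sequence gave 0.37 and 0.59, since both add the 22 nt form. With 2 groups only, its table row could not be fitted in LPS against Control or LPS+AS-IV against LPS. For miR-99a-5p in LPS+AS-IV against Control the table's 0.16 became -0.014 with library totals, -0.014 with the exp column and -0.10 with mature and hairpin tags; by sequence 0.10 became -0.037 with library totals, -0.010 with DESeq2 size factors and -0.0092 with DESeq2. The cause was not tested.

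The replicate block turned LPS+AS-IV against Control to -0.13 in the table and -0.19 by sequence for miR-99a-5p, and to -0.59 and -0.47 for miR-100-5p; by sequence it turned miR-125a-5p to -0.028 in LPS+AS-IV against LPS. With the replicate block the table's calls were 2 in LPS against Control and 1 in LPS+AS-IV against LPS. Libraries with the same number correlated between -0.12 and 0.15, with 3 of 9 pairs above 0.1. The same number was the best match in 7 of 18 comparisons of a library with another group. No clear pairing by number was seen, but with 3 libraries per group this check cannot exclude it.

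Leaving out each library in turn gave these ranges where a direction reversed. In LPS against Control they were -0.11 to 1.49 for miR-125a-5p by sequence (below 0 without Control 1 or LPS 1), -0.52 to 0.51 for miR-125b-5p by sequence (above 0 without Control 2 or LPS 2), and for miR-99b-5p -0.65 to 0.31 in the table (above 0 without Control 1 or LPS 2) and -0.42 to 0.27 by sequence (also without Control 3). In LPS+AS-IV against LPS they were -0.26 to 0.57 for miR-125a-5p by sequence (below 0 without LPS 2), and for miR-99a-5p -0.24 to 1.06 in the table and -0.22 to 1.35 by sequence (both below 0 without LPS+AS-IV 2). In LPS+AS-IV against Control they were -0.054 to 1.56 for miR-125a-5p (without Control 1) and -0.060 to 0.86 for miR-125b-5p (without Control 3 or LPS+AS-IV 2), by sequence. There miR-99a-5p ranged from -0.85 to 0.48 in the table and -1.03 to 0.51 by sequence, lowest without LPS+AS-IV 2 (also below 0 in the table without Control 3 or LPS 1, and by sequence without Control 3, LPS 2 or LPS 3), and miR-100-5p from -2.81 to 0.98 and -2.79 to 1.28, below 0 without LPS+AS-IV 3.

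Calls over all miRNAs also moved. The table's 1 in LPS against Control became 2 with library totals, 2 with no filter, 2 with the exp column, 3 with DESeq2, 3 with 2 groups only, 0 with each tag given to 1 miRNA, 0 by sequence, and 1 to 3 when a library was left out (above 1 without Control 1, Control 3, LPS 1, LPS+AS-IV 2 or LPS+AS-IV 3). Its 0 in LPS+AS-IV against LPS became 1 with DESeq2, 1 with no filter, and 0 to 1 when a library was left out (1 without Control 1, LPS 1 or LPS+AS-IV 2). Its 2 in LPS+AS-IV against Control became 0 with each tag given to 1 miRNA and 0 by sequence. By sequence, 0 became 4 with DESeq2 in LPS against Control and 4 in LPS+AS-IV against LPS, and 0 to 5 in the former when a library was left out (5 without LPS+AS-IV 3).

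Depth limits the rarer members. In the table a count of 0 allowed 5.99 CPM (LPS+AS-IV 3) to 216 CPM (LPS+AS-IV 1), and by sequence Control 1 rests on 5 reads of miR-125a-5p, LPS+AS-IV 1 on 5 of miR-100-5p and LPS+AS-IV 2 on 2 of miR-100-5p.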
